A study of Homo sapiens with 12 samples.

Results

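The response of 22Rv1 cells to a code-named compound, described by the submitters as a ligand that activates autophagy, was measured against vehicle in 6 of the 12 RNA-seq libraries of the series. The members were chosen by their labels: the 3 libraries of cells given the ligand and the 3 of cells given vehicle, at 24 h. 22Rv1 is an established human prostate carcinoma line used as a model of castration-resistant disease. The cells of all groups were unmodified, were kept in RPMI-1640 with 10% fetal bovine serum and differed in the compound alone, per the labels; being 1 line, they represent 1 tumour. The other 6 libraries came from cells given enzalutamide, a drug used in the clinic, or a code-named degrader. The labels gave no dose of any compound, so levels under different compounds are compared as deposited and not at matched doses. Each group held 3 replicates that the submitters call biologically independent, and p-values measure the spread between such libraries.

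Autophagy encloses cytoplasm in a double membrane and delivers it to lysosomes. The ULK1 and PI3K complexes start it, ATG proteins attach ATG8 family proteins such as LC3 to the membrane, and receptors such as p62 bring in the cargo. TFEB, TFE3 and MITF are transcription factors that switch on lysosomal and autophagy genes when mTORC1 activity at the lysosome is low. Transcript levels do not measure the flow of material through this pathway. Cholesterol synthesis is controlled separately: when sterols in the endoplasmic reticulum are low, SREBP-2 leaves INSIG1, is cleaved and switches on the genes of the mevalonate pathway, and SREBP-1 does the same for fatty acid synthesis.

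Vehicle libraries held 60.2 to 74.8 M counted reads and ligand libraries 55.5 to 71.8 M. Of 18668 genes listed, 17702 had counts high enough to test. Levels are given as CPM, read counts relative to the library total after TMM scaling, in replicates 1, 2 and 3 in that order. Luminal prostate markers summed to 3784 to 4031 CPM with vehicle and 3699 to 3840 CPM with the ligand, with 16 of 17 markers listed. Of the basal and stromal markers 10 of 14 were listed, at 251 to 257 CPM with vehicle and 225 to 230 CPM with the ligand, and KRT5, KRT14, TP63 and COL1A2 were not among the genes listed. Of 12 neuroendocrine markers 9 were listed, at 955 to 979 CPM with vehicle and 891 to 1002 CPM with the ligand. Of 11 immune and endothelial markers 3 were listed, at 8.91 to 9.41 and 7.75 to 9.55 CPM.

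The main comparison asked which transcripts differed between ligand and vehicle. Genes of cholesterol synthesis and its regulation rose, with a few genes of fatty acid synthesis and of the lysosome, and TXNIP and its relative ARRDC4 fell. By edgeR's quasi-likelihood test at a Benjamini-Hochberg adjusted p under 0.05, 42 of 17702 genes were called, a share of 0.237%. Of these 36 rose (0.203% of genes tested) and 6 fell (0.0339%). In all 42 the 3 ligand libraries did not overlap the 3 vehicle libraries, against 5.61% of all genes tested that were higher and 5.71% that were lower without overlap. The 42 were called on these same libraries, so the lack of overlap is no separate support. Changes were small: 13 of the 42 reached 0.5 on the log2 scale and 1, CDHR1, reached 1. At an unadjusted p under 0.05 there were 1297 of the 17702 genes, which is the background for counts of list members at that p. Of the 36 rises, 17 were in the list of 26 sterol genes, 4 in the list of fatty acid genes and 4 in the lists of lysosomal and TFEB pathway genes. The count depended on single libraries: it was 38, 24 and 21 without vehicle replicates 1, 2 and 3, and 22, 25 and 77 without ligand replicates 1, 2 and 3, with 19 to 70 rises and 2 to 7 falls. With each of the 6 libraries left out in turn, 19 of the 42 genes were called every time and 9 of these were sterol genes.

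**Figure D1:**
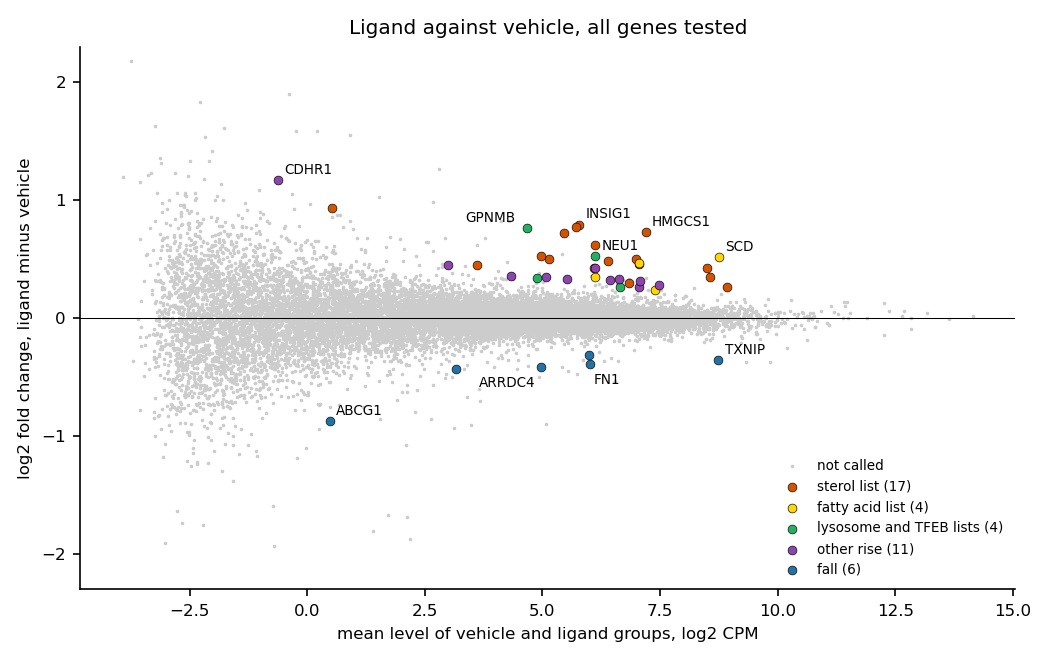
Log2 fold change, ligand minus vehicle, of each of the 17702 genes tested against its mean level in the vehicle and ligand groups (log2 CPM). Coloured points are the 42 genes called by edgeR, by gene list; the 17 sterol genes lie above 0, and the 6 falls lie between -0.88 and -0.32.

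The sterol pathway's regulators rose. SREBF2, which encodes SREBP-2, was at 316, 311 and 305 CPM with vehicle and 419, 434 and 398 CPM with the ligand. All 3 ligand libraries lay above all 3 vehicle libraries, a log2 fold change of 0.42 (SE 0.05, edgeR adjusted p = 0.000546). INSIG1, the endoplasmic reticulum protein that holds SREBPs back and is itself a target of theirs, was at 40.8, 40.0 and 40.2 CPM with vehicle and 76.0, 65.1 and 68.6 CPM with the ligand. It rose by 0.79 (SE 0.06, edgeR adjusted p = 5.28e-06), and the lowest ligand library stood well clear of vehicle.

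Of the rises, 27 of 36 had a promoter in the RefSeq table (GRCh38.p14), read here as the 250 bases before the gene's start. The promoters of INSIG1 and SREBF2 are shown because both regulators rose and each holds a motif of the SREBP or E-box type, in capitals.
INSIG1, chr7:155297628-155297877, plus strand: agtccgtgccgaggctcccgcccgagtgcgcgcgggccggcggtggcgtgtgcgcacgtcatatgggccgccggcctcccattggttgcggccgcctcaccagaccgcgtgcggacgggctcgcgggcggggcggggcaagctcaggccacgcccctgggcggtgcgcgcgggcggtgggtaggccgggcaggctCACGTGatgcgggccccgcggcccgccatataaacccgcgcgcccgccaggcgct
SREBF2, chr22:41832855-41833104, plus strand: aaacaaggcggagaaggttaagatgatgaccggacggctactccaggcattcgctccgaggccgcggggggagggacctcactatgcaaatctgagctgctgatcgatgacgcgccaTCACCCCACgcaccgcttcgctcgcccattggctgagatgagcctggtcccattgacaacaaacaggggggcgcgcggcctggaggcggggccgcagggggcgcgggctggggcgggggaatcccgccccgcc
The capitals mark CACGTG, the palindromic E-box, 55 bases before the start of INSIG1, and TCACNCCAC, the sterol regulatory element, 133 bases before the start of SREBF2. Motifs were searched on both strands. TCACNCCAC was present in 0.883% of all 35116 promoters and in 1 of the 27 risen genes with a promoter, SREBF2. CACGTG was present in 6.34% of all promoters and in 2 of the 27, INSIG1 and NEU1. The ATF4 composite TGATGNAA was in 3.14% of all promoters and in 0 of the 27. The hypoxia core ACGTG was in 18.5% of all promoters and in 6 of the 27. The antioxidant element TGACNNNGC was in 10.9% of all promoters and in 1 of the 27. The letters GCGTG, searched as the core for the aryl hydrocarbon receptor, were in 32.2% of all promoters. They were in 20 of the 27 risen genes and in 17 of the 19 sterol list genes with a promoter, of any response. The base composition of these windows was not matched. The shares of all promoters count each promoter of 27305 genes. The gene sets count each gene once, with a match in any of its promoters, so the shares are not of the same kind. The sterol regulatory element and the M-box named further on were added to the search after the calls were known.

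Genes of the pathway's enzymes rose at early and late steps. HMGCS1, which makes HMG-CoA, was at 103, 116 and 111 CPM with vehicle and 194, 170.2 and 183 CPM with the ligand. It rose by 0.73 (SE 0.06, edgeR adjusted p = 5.28e-06), with no overlap between groups. SQLE, the squalene epoxidase, was at 33.3, 34.9 and 32.0 CPM with vehicle and 58.8, 52.3 and 54.1 CPM with the ligand, a rise of 0.72 (SE 0.06, edgeR adjusted p = 5.28e-06). ACAT2, the thiolase that acts before HMGCS1, rose by 0.43. Between HMGCS1 and SQLE in the pathway, the mevalonate kinase gene MVK rose by 0.50, the isomerase gene IDI1 by 0.48 and the squalene synthase gene FDFT1 by 0.35. After SQLE, the lanosterol synthase gene LSS rose by 0.50, the methyl oxidase gene MSMO1 by 0.62, HSD17B7 by 0.45 and DHCR7 by 0.46. STARD4, which carries cholesterol between membranes, was at 24.0, 24.5 and 28.6 CPM with vehicle and 38.0, 30.9 and 42.1 CPM with the ligand and rose by 0.52 (edgeR adjusted p = 0.0247).

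In all, 17 of 26 sterol genes rose and 0 fell, with a median of 0.44 against -0.0034 over all genes tested. The rises named here ran from 1.28-fold for FDFT1 to 1.73-fold for INSIG1. Mean log2 CPM over the list was 5.99, 5.97 and 5.97 in the vehicle libraries and 6.48, 6.39 and 6.34 in the ligand libraries. Ligand replicate 1 was the highest and replicate 3 the lowest of the 3, and all 3 stood apart from vehicle. Of the 9 members not called, MVD was at 0.55 (0.0685), EBP at 0.29 (0.0789), TM7SF2 at 0.32 (0.294), CYP51A1 at 0.19 (0.229) and FDPS at 0.20 (0.263; edgeR adjusted p in parentheses). These 5 were called with the replicate number as a block. SC5D (0.21) and NSDHL (0.20) were called in neither fit. The other 2 lay close to 0: PMVK, the phosphomevalonate kinase, at 0.05 (95% interval -0.11 to 0.20) and GGPS1, which makes geranylgeranyl diphosphate for protein prenylation and not for sterols, at -0.03 (-0.13 to 0.06). Without single libraries, between 9 (without ligand replicate 1) and 20 (without ligand replicate 3) of the 26 rose. It was 10 without vehicle replicate 2 or 3. INSIG1, HMGCS1, SQLE, MSMO1, SREBF2, LSS, DHCR7 and IDI1 were among those called with each library left out. The calls of MVK, FDFT1, ACAT2, HSD17B7 and STARD4 were each lost without 3 or 4 of the 6 libraries, with adjusted p up to 0.174, for STARD4 without vehicle replicate 2.

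**Figure D2:**
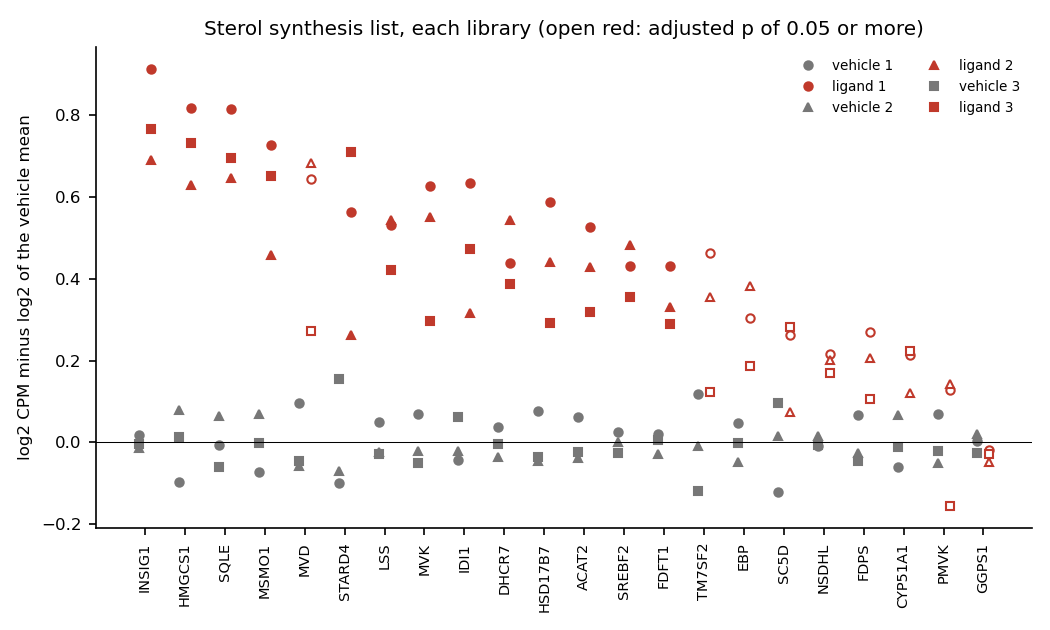
Level of 22 of the 26 sterol genes in each library, as log2 CPM minus log2 of the mean of the 3 vehicle libraries; grey is vehicle, red is ligand, symbols give the replicate, and open red symbols are genes with an adjusted p of 0.05 or more. In 19 of the 22 genes all red points lie above all grey ones, and at SC5D, PMVK and GGPS1 the groups overlap.

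Genes of fatty acid synthesis responded in part. SREBF1, which encodes SREBP-1, was at 114, 112 and 109.9 CPM with vehicle and 154, 161 and 149.9 CPM with the ligand. It rose by 0.47 (SE 0.05, edgeR adjusted p = 0.000199) with no overlap. SCD, which puts the first double bond into stearate, was at 369, 339 and 358 CPM with vehicle and 535, 452 and 541 CPM with the ligand and rose by 0.52 (edgeR adjusted p = 0.00067); ligand replicate 2 was the lowest of the ligand libraries. The desaturase genes FADS1 (0.24) and FADS2 (0.35) rose too. So 4 of 15 genes tested rose and 0 fell, with a median of 0.12. FASN, the fatty acid synthase, was at 1177, 1165 and 1196 CPM with vehicle and 1231, 1468 and 1242 CPM with the ligand. Its log2 fold change was 0.16 (95% interval 0.01 to 0.30, edgeR adjusted p = 0.654), and ligand replicate 2 stood above the other two. The FADS1 and FADS2 calls were each lost on omitting 4 of the 6 libraries in turn, with adjusted p up to 0.135 for FADS1, without ligand replicate 1, and up to 0.172 for FADS2, without vehicle replicate 3.

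A few lysosomal genes were called as higher. GPNMB, a membrane glycoprotein of lysosomes and melanosomes and a known target of MITF and TFE3, was at 18.9, 18.6 and 19.4 CPM with vehicle and 33.1, 32.2 and 31.4 CPM with the ligand. It rose by 0.77 (SE 0.06, edgeR adjusted p = 5.28e-06), and each group was tight. NEU1, the lysosomal sialidase, was at 61.3, 55.6 and 53.8 CPM with vehicle and 85.4, 83.0 and 76.9 CPM with the ligand and rose by 0.52 (SE 0.07, edgeR adjusted p = 0.00121). The peptidase gene TPP1 rose by 0.27 (edgeR adjusted p = 0.00727; 0.0576 without vehicle replicate 2). Together 3 of 67 genes of hydrolases, the proton pump and the lysosomal membrane rose and 0 fell, against 0.203% of all genes tested that rose. Their median was 0.07, and 56 of 67 fold changes were above 0, against 8596 of 17702 over all genes tested. By edgeR 19 of the 67 had an unadjusted p under 0.05, against 1297 of 17702 over all genes tested. Without overlap 19 of the 67 were higher with the ligand and 1 was lower, against 5.61% and 5.71% of all genes tested. The small rise thus reached more of these genes than the 3 called. The median of these 67 against vehicle was 0.04 with enzalutamide and 0.16 with the degrader, so a small positive shift was not particular to the ligand. Mean log2 CPM over these 67 was 5.76, 5.75 and 5.73 with vehicle and 5.86, 5.85 and 5.80 with the ligand. FLCN, folliculin, which with mTORC1 keeps TFE3 and TFEB in the cytoplasm, rose by 0.34 (edgeR adjusted p = 0.00986). Its call was lost without vehicle replicate 3 (0.092) or ligand replicate 2. It was the 1 call among 21 genes of the TFEB family and mTORC1 at the lysosome. Of these 21, 6 had an unadjusted p under 0.05 by edgeR, and their median was 0.07. That median was 0.06 with enzalutamide and 0.15 with the degrader, each against vehicle. TFEB itself was at 0.02 (95% interval -0.15 to 0.19) and TFE3 at -0.02 (-0.18 to 0.13).

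The promoters of GPNMB and NEU1 are shown since these 2 genes rose most among the lysosomal genes, with the M-box TCATGTG, bound by MITF and its relatives, or the E-box in capitals.
GPNMB, chr7:23246525-23246774, plus strand: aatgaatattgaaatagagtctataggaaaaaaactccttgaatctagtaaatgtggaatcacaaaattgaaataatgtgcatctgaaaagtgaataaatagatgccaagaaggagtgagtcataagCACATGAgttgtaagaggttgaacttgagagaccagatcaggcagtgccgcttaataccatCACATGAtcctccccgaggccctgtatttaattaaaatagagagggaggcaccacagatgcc
NEU1, chr6:31862822-31863071, minus strand: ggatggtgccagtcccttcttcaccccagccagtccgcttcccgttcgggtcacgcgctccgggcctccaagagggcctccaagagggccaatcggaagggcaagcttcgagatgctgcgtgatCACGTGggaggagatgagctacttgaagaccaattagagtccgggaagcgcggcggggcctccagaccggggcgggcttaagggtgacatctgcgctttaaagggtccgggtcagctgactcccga
In GPNMB the M-box lies on the opposite strand, so that it reads CACATGA, 123 and 62 bases before the start; in NEU1 the E-box CACGTG lies 126 bases before it. TCATGTG was present in 2.52% of all promoters and in 2 of the 27 risen genes with a promoter, GPNMB and TPP1, counted as above.

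Autophagy genes themselves were not called in the main comparison. The 72 genes were in 5 lists: initiation, ATG8 conjugation, the ATG8 family, cargo receptors and fusion. By edgeR without the replicate number as a block, 0 rose and 0 fell, against 0.237% of all genes tested that were called. Of the 72, 5 had an unadjusted p under 0.05, against 1297 of 17702 over all genes tested. These counts are near the overall shares and do not set the autophagy genes apart. The median was 0.01. Without the block DESeq2 and limma-voom also called 0 of the 72. The 95% interval lay within 1.5-fold either way for 70 of the 72, against 78.6% of all genes tested. The exceptions were the mitophagy receptor genes BNIP3 (-0.53, -1.48 to 0.41) and BNIP3L (-0.36, -0.87 to 0.14), which are also induced by hypoxia. MAP1LC3B, which encodes LC3B, was at 77.2, 79.3 and 75.7 CPM with vehicle and 82.3, 78.5 and 78.4 CPM with the ligand. The groups overlapped, and its log2 fold change was 0.04 (95% interval -0.05 to 0.14). GABARAPL1, of the same family, was at 0.03 (-0.15 to 0.22) and the phosphoinositide reader gene WIPI1 at 0.01 (-0.15 to 0.18). LAMP3, a lysosomal membrane protein gene, was at 0.636, 1.31 and 0.935 CPM with vehicle and 1.07, 1.07 and 0.913 CPM with the ligand, with overlap. SQSTM1, which encodes the cargo receptor p62, was at 181, 164 and 157 CPM with vehicle and 211, 199 and 182 CPM with the ligand. The lowest ligand library stood just above the highest vehicle library, at a log2 fold change of 0.24 (95% interval 0.08 to 0.41) and an edgeR adjusted p of 0.392 without the block and 0.00157 with it. With the block and without replicate 1 its edgeR adjusted p was 0.0791. NBR1, a receptor of related structure, was at -0.12 (-0.20 to -0.03, edgeR adjusted p = 0.469).

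**Figure D3:**
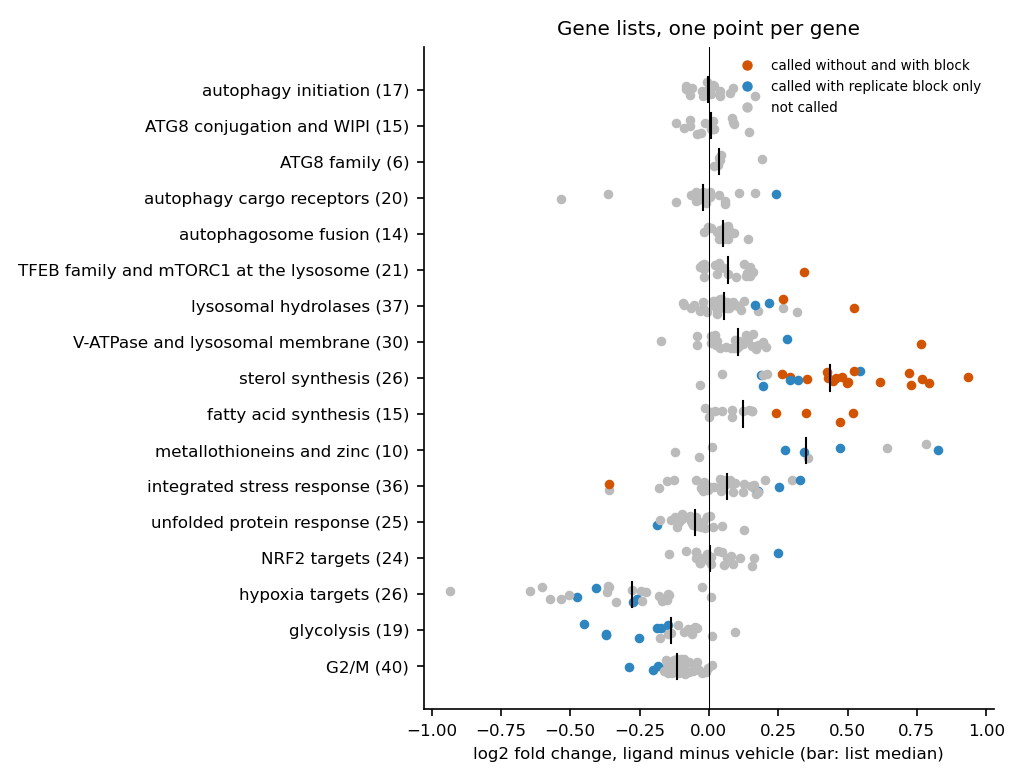
Log2 fold change, ligand minus vehicle, of each gene tested in 17 of the 35 lists, with the number of genes in parentheses and a bar at the list median. Orange points were called in both fits, blue points with the replicate block and not without it; the sterol list has its median at 0.44 and the 5 autophagy lists have theirs between -0.02 and 0.05.

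The 6 falls were led, among genes of at least 5 CPM, by HLA-DMB and ARRDC4. TXNIP, which binds thioredoxin and restrains glucose uptake, was at 489.8, 480.1 and 471 CPM with vehicle and 388, 356 and 379 CPM with the ligand. It fell by 0.36 on the log2 scale (SE 0.05, edgeR adjusted p = 0.00258). ARRDC4, an arrestin-like gene induced like TXNIP by the glucose sensor MondoA, was at 34.3, 36.5 and 36.8 CPM with vehicle and 27.3, 24.5 and 29.1 CPM with the ligand. It fell by 0.41 (SE 0.06, edgeR adjusted p = 0.00443), with no overlap. The fibronectin gene FN1 fell by 0.39 (0.00543; 0.0681 without ligand replicate 1), HLA-DMB, of antigen loading, by 0.43 (0.0247) and KLK2, a kallikrein of luminal prostate cells, by 0.32 (0.0331; edgeR adjusted p in parentheses). FN1 is also 1 of the basal and stromal markers summed above. KLK2 was at 73.9, 68.6 and 70.4 CPM with vehicle and 57.0, 58.6 and 55.2 CPM with the ligand. Its call was lost with any of the 6 libraries left out (adjusted p 0.0771 to 0.161), and that of HLA-DMB with any of 5 (up to 0.16, without ligand replicate 2). KLK3, which encodes prostate-specific antigen, was at -0.15 (95% interval -0.29 to -0.02, adjusted p = 0.616). The sixth fall, ABCG1, is a cholesterol efflux transporter induced by the oxysterol receptor LXR; it lay under the level set for naming and was chosen after its values were seen. It was at 1.73, 1.74 and 1.95 CPM with vehicle and 0.869, 1.11 and 0.966 CPM with the ligand and fell by 0.88 (edgeR adjusted p = 0.039), a call lost with any library left out (0.0806 to 0.246). Of other LXR targets, looked up after that, ABCA1 was at -0.12 (-0.55 to 0.32) and MYLIP at -0.12 (-0.28 to 0.04).

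The promoter of ARRDC4 is shown because this gene fell and holds an E-box, the core of the element that MondoA binds, in capitals.
ARRDC4, chr15:97960453-97960702, plus strand: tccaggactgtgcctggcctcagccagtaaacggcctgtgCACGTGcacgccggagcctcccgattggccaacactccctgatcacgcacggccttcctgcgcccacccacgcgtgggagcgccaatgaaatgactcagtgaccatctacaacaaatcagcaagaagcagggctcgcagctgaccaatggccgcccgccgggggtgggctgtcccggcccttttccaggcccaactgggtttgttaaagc
The E-box CACGTG lies 210 bases before the start of ARRDC4. It was in 1 of the 5 falls that had a promoter in the table, and in 6.34% of all promoters. TXNIP was among the 5, and CACGTG was not found in its window.

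Another 11 rises were in none of the lists, and these genes were named after their values were seen. UAP1L1, a relative of the enzyme that makes UDP-N-acetylglucosamine, was at 60.9, 58.6 and 58.1 CPM with vehicle and 79.6, 81.1 and 77.9 CPM with the ligand and rose by 0.43 (edgeR adjusted p = 0.000199). The glycosyltransferase gene GALNT10 rose by 0.32, the secreted proteoglycan gene TSKU by 0.33 and the retinol dehydrogenase gene RDH11 by 0.28. These 4 were called with each library left out. SUOX, the sulfite oxidase gene, rose by 0.27, SEL1L3 by 0.33, HS1BP3 by 0.35, the lysophospholipase gene PNPLA7 by 0.36, RAB3IL1 by 0.45 and MMAB, which shares a promoter region with MVK, by 0.32. CDHR1, a cadherin of photoreceptors, rose by 1.17 but from 0.352, 0.446 and 0.417 CPM to 1.13, 0.857 and 0.734 CPM. Each of these 7 calls was lost without 4 or 5 of the 6 libraries, with adjusted p up to 0.25, for MMAB without ligand replicate 1.

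The comparison was also fitted with the replicate number as a block, which compares ligand and vehicle libraries of the same number. The labels do not say that a number marks a shared day or batch. With the block edgeR called 191 genes (1.08%), 125 that rose (0.706%) and 66 that fell (0.373%), among them all 42 called without it. Metallothioneins, small metal-binding proteins induced by zinc, made up the calls in a list of 10 metallothionein and zinc genes. Of the 10, 4 rose with the block, each a metallothionein, and the list's median was 0.35. Without the block 0 were called by edgeR, 3 by DESeq2 and 1 by limma-voom, and 6 had an unadjusted p under 0.05 by edgeR. MT1G was at 13.8, 15.6 and 12.9 CPM with vehicle and 29.3, 24.1 and 21.4 CPM with the ligand. The groups did not overlap; the log2 fold change was 0.83 and the edgeR adjusted p 0.0505 without the block and 2e-05 with it. MT1X (0.47), MT2A (0.34) and MT1E (0.27) were the others; these genes are close copies of each other, and how reads were divided among them is not given in the sources used here. Other rises with the block included those of NPC2, which hands cholesterol out of the lysosome (0.28), the hydrolase gene CTSA (0.22), the serine synthesis gene PHGDH (0.25), the mitochondrial folate gene ALDH1L2 (0.18), NUPR1 (0.33), the ferritin gene FTL (0.25), CYP1A2 (0.67) and mitochondrially encoded ND1 (0.14).

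Hypoxia and glycolysis genes fell with the block alone. Of 26 hypoxia targets 4 fell with it and 0 without (median -0.28). Of 19 glycolysis genes 7 fell with it and 0 without (median -0.14). DESeq2 and limma-voom without the block called 0 of either list. By edgeR 8 of the 45 genes had an unadjusted p under 0.05, against 1297 of 17702 tested. Against vehicle, the hypoxia median was -0.39 with enzalutamide and -0.27 with the degrader. The glycolysis medians were -0.11 and -0.44 in that order. Between ligand and enzalutamide 0 of the 45 genes differed by edgeR without the block, against 2.04% of all genes tested. Against the degrader 15 of the 45 were higher with the ligand and 2 lower. Over all genes tested the shares were 14.2% higher and 14.3% lower. LDHA, the lactate dehydrogenase subunit, was at 1211, 892 and 1003 CPM with vehicle and 926, 637 and 841 CPM with the ligand. Each ligand library lay below the vehicle library of its number, while the groups overlapped, and the log2 fold change of -0.37 had an edgeR adjusted p of 0.698 without the block and 0.000189 with it. PFKFB3, which drives glycolysis through a fructose bisphosphate, was at 79.3, 48.1 and 58.1 CPM and 54.5, 33.1 and 46.1 CPM, with adjusted p 0.815 and 0.000258 in the same order. The kinase gene PDK1 (-0.41), the histone demethylase gene KDM3A (-0.26) and FAM162A (-0.28) were the other hypoxia targets, and HK2 (-0.19), GPI (-0.15), PGK1 (-0.37), PGAM1 (-0.17), ENO1 (-0.25) and the lactate exporter gene SLC16A3 (-0.45) the other glycolysis genes. Mean log2 CPM over both lists was 6.89, 6.45 and 6.63 with vehicle and 6.60, 6.14 and 6.45 with the ligand. Replicate 1 was the highest and replicate 2 the lowest in both of these groups. The means were 6.57, 6.11 and 6.28 with enzalutamide and 6.52, 6.20 and 6.20 with the degrader. Replicate 1 was the highest there too. Of the 45 genes, 36 were lower in all 3 same-numbered pairs of ligand and vehicle, against 16.1% of all genes tested. With replicate 1 of every group left out, also of enzalutamide and the degrader, the block fit called 37 genes. Among them were 0 hypoxia targets, 1 glycolysis gene, 1 metallothionein and 14 sterol genes.

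**Figure D4:**
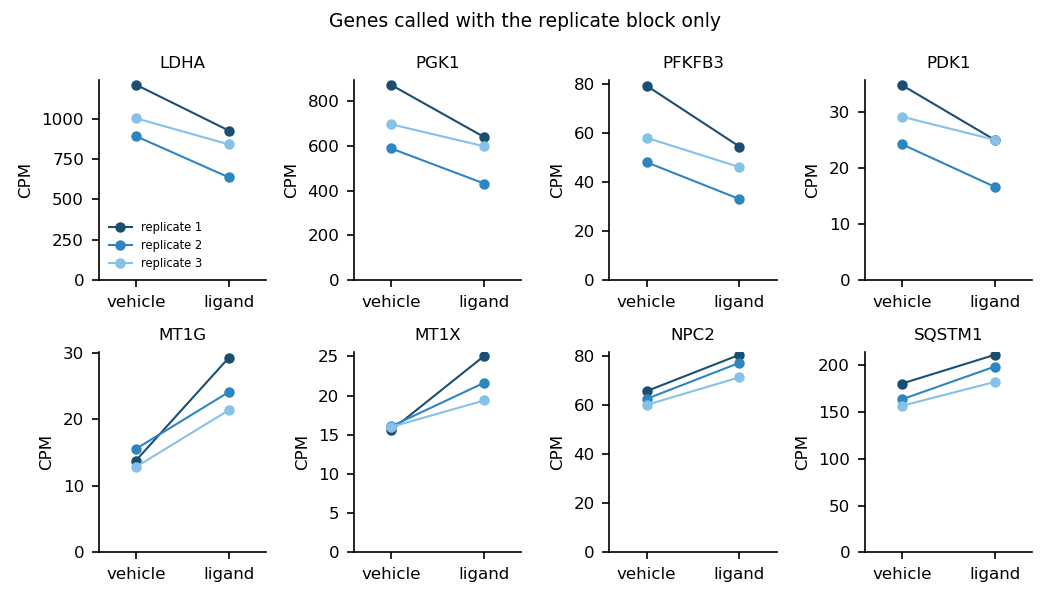
Level in CPM of 8 genes called with the replicate block and not without it, in the vehicle and ligand libraries, with lines joining libraries of the same replicate number. For LDHA, PGK1, PFKFB3 and PDK1 each line falls although the groups overlap, and for MT1G, MT1X, NPC2 and SQSTM1 each line rises.

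Large falls with the block, beside those named, included those of the dynein gene DNAH11 (-0.61), DPYSL4 (-0.51), the small GTPase gene RAB31 (-0.50), the phosphatase inhibitor gene PPP1R1B (-0.44), the cytokine gene TGFB1 (-0.43) and the neuritin gene NRN1 (-0.41). All of these but DNAH11 were highest in replicate 1 of both groups, as the mean of the hypoxia and glycolysis genes was. In the G2/M list 0 of 40 genes were called without the block and 3 fell with it, CENPE (-0.29), CENPF (-0.20) and TOP2A (-0.19). With the block, 0, 5 and 1 fell without replicates 1, 2 and 3. The list's median was -0.11, and 20 of the 40 were lower without overlap, against 5.71% of all genes tested. At an unadjusted p under 0.05 there were 19 of the 40, against 1297 of 17702 over all genes tested by edgeR. The latter count also stands beside those of the lists that follow. DESeq2 and limma-voom without the block called 0 of the G2/M list. UBE2C, a ubiquitin-conjugating enzyme of anaphase, was at -0.12 (95% interval -0.22 to -0.03, edgeR adjusted p = 0.519). Among 36 integrated stress response genes, TXNIP was the 1 call by edgeR without the block, and 12 had an unadjusted p under 0.05. Without the block DESeq2 called 3, NUPR1 and PHGDH as rises and TXNIP as a fall, and limma-voom called TXNIP. In edgeR without the block DDIT3, the stress factor CHOP, was at 0.20 (0.06 to 0.34, adjusted p = 0.414). Of the unfolded protein response list 0 of 25 were called without the block and the chaperone gene HSP90B1 (-0.19) fell with it, a call lost without replicate 1 (edgeR adjusted p = 0.175) or 3 (0.155). Of these 25, 8 had an unadjusted p under 0.05, DESeq2 without the block called 1, HSP90B1, and limma-voom called 0. Heat shock, S phase, ribosome biogenesis, p53, BCL2 family, interferon, NF-kB, proteasome and tubulin lists had 0 calls in both edgeR fits and, without the block, by DESeq2 and limma-voom, with medians between -0.07 and 0.03 and between 0 and 3 members of each at an unadjusted p under 0.05. For 9 of the 31 interferon genes DESeq2 gave no adjusted p, so it could not call them. The xenobiotic enzyme gene CYP1A1 was at 0.22 (-0.11 to 0.55), and FKBP5, a co-chaperone gene, at -0.04 (-0.14 to 0.05).

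The same genes were compared between the ligand and the other 2 compounds, whose doses the labels do not give. Against enzalutamide, 361 genes differed by edgeR (2.04%), 243 higher with the ligand (1.37%) and 118 lower (0.667%). The lower count depended on single libraries: it was 66, 75 and 97 without ligand replicates 1, 2 and 3, and 64, 73 and 54 without enzalutamide replicates 1, 2 and 3. With the replicate block 403 were higher and 210 lower. Of the 26 sterol genes 18 were higher with the ligand and 0 lower, with a median difference of 0.41. INSIG1 was 0.93 higher (edgeR adjusted p = 6.97e-08) and GPNMB 0.88 higher (1.37e-07), and both levels under enzalutamide (36.6 and 17.5 CPM) were below that of the ligand. FKBP5 was 1.21 higher with the ligand (1.24e-10), at 881, 866 and 937 CPM against 369.8, 399 and 391 CPM. KLK2 differed by 0.10 (95% interval -0.03 to 0.23, edgeR adjusted p = 0.744). TXNIP (-0.29) and ABCG1 (-1.02) were lower with the ligand.

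Against the degrader 5049 genes differed (28.5%), 2514 higher with the ligand (14.2%) and 2535 lower (14.3%). Of the 26 sterol genes 24 were lower with the ligand than with the degrader and 0 higher, with a median difference of -0.75. HMGCS1 was at 194, 170.2 and 183 CPM with the ligand and 727, 651 and 699 CPM with the degrader, a difference of -1.92 (edgeR adjusted p = 4.26e-12). GPNMB differed by -0.92, NEU1 by -0.83 and LAMP3 by -4.75, each lower with the ligand, and LAMP3 was at 30.6, 25.1 and 26.7 CPM with the degrader. SREBF1 stood closer, at a difference of -0.15 (0.0361). TXNIP (0.91), KLK2 (0.77) and ARRDC4 (0.51) were higher with the ligand than with the degrader.

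**Figure D5:**
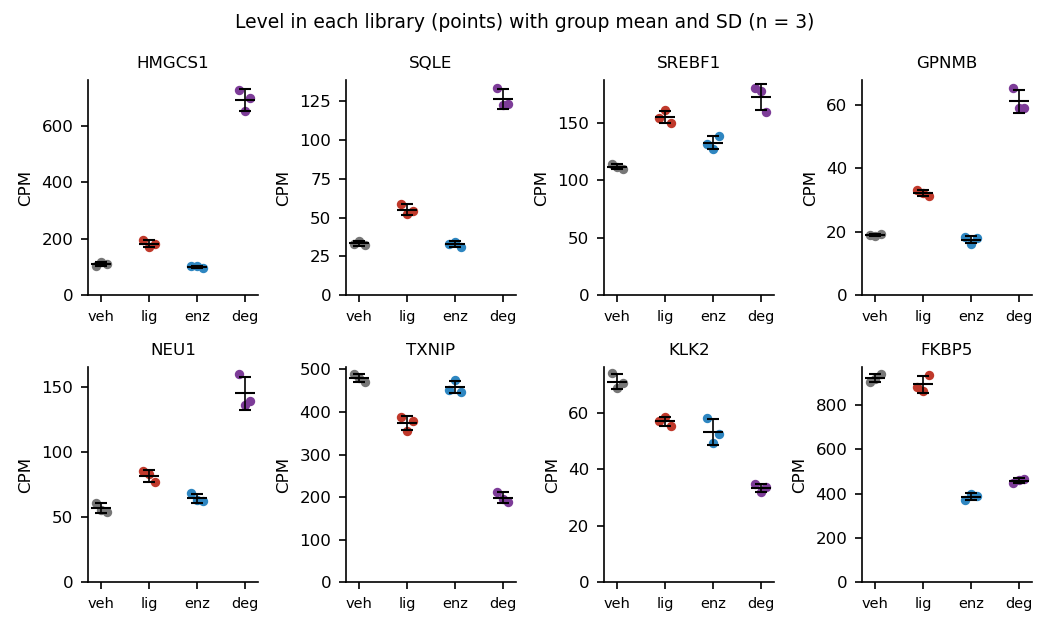
Level in CPM of 8 genes in each library under vehicle (veh), the ligand (lig), enzalutamide (enz) and the degrader (deg); points are libraries and bars are the mean ± SD (n = 3). The ligand mean lies between those of vehicle and degrader for HMGCS1, SQLE, SREBF1, GPNMB, NEU1, TXNIP and KLK2, and its FKBP5 points overlap those of vehicle.

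In the authors' deposited table, 124 genes had an adjusted p under 0.05 for the ligand against vehicle, 0.866% of the 14323 genes with a value, of which 101 were up and 23 down. It includes the 42 genes called here, in the same direction, which make up 33.9% of the deposited calls and 100% of those of edgeR. The authors' deposited table gave a fold of 1.74 for INSIG1 (adjusted p 2.67e-30), 1.70 for GPNMB (1.04e-27) and -1.28 for TXNIP (5.58e-08), where a minus sign marks a fall. The authors' deposited table gave 1.77 for MT1G (0.000704), 1.18 for SQSTM1 (0.17) and 1.03 for MAP1LC3B (0.941).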

How the data were processed

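The tools and build are HISAT2, StringTie and GRCh37, per the submitters' processing notes; versions and the counting step are not given in the sources used here. The authors deposited 1 table with whole read counts and TPM per gene and library, a signed fold score for the ligand against vehicle (a fall is minus the inverse ratio) and a Benjamini-Hochberg adjusted p-value, per the file headers. Every listed gene had at least 1 read in each library.

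Counts of all 12 libraries were scaled by TMM and filtered with filterByExpr (minimum count 10, minimum total 15), which left out 966 genes. They were tested with edgeR 4.0.16 in R 4.3.3 (robust quasi-likelihood fit, group as the term, 8 residual degrees of freedom; 6 with the replicate block), with adjustment over all 17702 genes. DESeq2 1.42.0 and limma 3.58.1 were alternatives. The model was also run on simulated data, with changes larger than most of those called here. That run therefore does not bear on the smaller changes. TPM was used to look at gene levels and for no test. Libraries held 55.5 to 77.2 M counted reads. Replicates of a group differed by a chi-square of 5.71 to 22 per degree of freedom, more than counting error, so precision rests on that spread.

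The 35 lists held 749 symbols, of which 710 were tested. They, the members and the named genes were chosen with earlier results of these data known. Named genes were fixed ones, then up to 12 rises and 12 falls of the largest log2 change in each fit (at least 5 CPM, no overlap or 1 direction in all 3 pairs), then up to 4 members of each list by p; some genes that this rule names are not reported here. Promoters came from RefSeq, GRCh38.p14, by symbol, with no coordinate of the deposited table.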

Additional observations from a re-analysis of the deposited data

How the results depend on the processing

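Across 20 alternatives, 17 of the 42 called genes, 9 of them sterol genes, were called each time, 25 lost the call in at least 1, and 0 changed direction. The count of genes changed, 42, was 44 with DESeq2 size factors, 43 without the filter and 40 with limma-voom. It was 121 with DESeq2 and 25 when the 6 libraries compared were fitted alone, where 22 of the 42 were kept. With 1 library left out it was 21 to 77, and sterol rises were 9 to 20.

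With the replicate block the count was 191 (150 in the 6 libraries alone, 319 by DESeq2, 212 by limma-voom, 164 without the filter, 189 with DESeq2 size factors), and 37, 266 and 96 without replicates 1, 2 and 3. The share of rises among calls was 85.7% without the block and 65.4% with it. Deviations of same-numbered ligand and vehicle libraries from their group means had correlations of 0.102, -0.0125 and 0.119 over genes, so the numbers were not taken to pair the samples. As a hint from the data, 4 of the 6 libraries correlated best with the one of their own number. Over the hypoxia and glycolysis genes, replicate 1 had the highest mean in every group, also with enzalutamide and the degrader. Ligand against enzalutamide gave 613 genes with the replicate block, against 361, and 229 to 337 with 1 library left out (229 without enzalutamide replicate 3). Ligand against degrader gave 6559 with the replicate block, against 5049.

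With 3 libraries a group the smallest change called was 0.24 on the log2 scale, for FADS1, and 966 genes with low counts and genes not listed in the table were not analysed here.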
